A study of Mus musculus with 119 samples.

Results

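Bone marrow–derived macrophages (BMDMs) of Nfkb1[SS/AA] mice, called p105AA in the sample names, were compared by RNA-seq with wild-type (WT) BMDMs after LPS at 100 ng/ml for 1 h. The members were chosen by their labels alone, as the 6 p105AA libraries (replicates 1 to 6) and the 6 WT libraries (replicates 4 to 9) of this time point, 12 libraries of the series in all. All mice were of the strain C57BL/6(NIMR), and the p105AA cells carried both altered Nfkb1 alleles in every cell, not in macrophages alone. The macrophages were grown from femur marrow for a week in medium conditioned by L cells and received no inhibitor here. The labels place the WT libraries in the TPL experiment and the p105AA libraries in a p105AA experiment that has no WT library among those used here, so genotype and experiment cannot be told apart in any difference given below. Libraries of both genotypes without LPS and after LPS for 0.5 h (6 for each genotype in each state) and 1 h libraries of Map3k8[D270A] BMDMs (6, from the TPL experiment, with kinase-inactive TPL-2) served for comparison. The labels and the methods do not say whether each replicate was a separate mouse, so p values measure spread between cultures. This spread was pooled over all groups of the series.

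The protein p105 is the product of Nfkb1 (chromosome 3 from 135584655 to 135691969 in GRCm38). It is the precursor of the NF-kB subunit p50, it holds NF-kB dimers in the cytoplasm as other IkB proteins do, and it binds and stabilizes the kinase TPL-2 (the product of Map3k8) together with ABIN-2 (the product of Tnip2). When LPS engages TLR4, the IKK complex phosphorylates p105, the protein is degraded, and freed TPL-2 activates MKK1/2 and through them ERK1/2. The SS/AA alleles replace serines that IKK phosphorylates with alanines, so that p105 is not degraded on this signal, TPL-2 stays bound, and NF-kB dimers held by p105 are not set free. ERK1/2 phosphorylate ternary complex factors, which act with SRF at CArG boxes of immediate early genes such as Egr1 and Fos.

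Promoter sequences are shown for 6 changed genes that each hold a motif marked here. Each runs from 250 bases before to 50 after the RefSeq start in GRCm38.p6, 5′ to 3′ on the gene's own strand. They do not show how often a motif occurs. The CArG box was in 5.45% of the lower genes with a promoter. The NF-kB site, marked here in higher genes only, was in 21.8% of the lower and 8.51% of the higher genes. Capitals mark CArG boxes in Dusp5 and Zfp36 (both lower in p105AA), an NF-kB site in Ifnb1 (higher), NF-kB sites and a core of the interferon-stimulated response element (ISRE) in Cxcl10 (higher), ISRE cores in Ifit1 (higher), and the ATF4-type motif TGATGNAA in Asns (higher).
Dusp5 (chr19:53528895-53529194, plus strand): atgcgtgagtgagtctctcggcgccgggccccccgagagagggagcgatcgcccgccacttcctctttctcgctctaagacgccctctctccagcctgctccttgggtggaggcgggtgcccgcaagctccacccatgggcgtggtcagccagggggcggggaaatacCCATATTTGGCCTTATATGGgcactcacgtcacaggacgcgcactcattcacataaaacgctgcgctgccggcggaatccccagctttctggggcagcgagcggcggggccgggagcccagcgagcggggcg
Zfp36 (chr7:28379179-28379478, minus strand): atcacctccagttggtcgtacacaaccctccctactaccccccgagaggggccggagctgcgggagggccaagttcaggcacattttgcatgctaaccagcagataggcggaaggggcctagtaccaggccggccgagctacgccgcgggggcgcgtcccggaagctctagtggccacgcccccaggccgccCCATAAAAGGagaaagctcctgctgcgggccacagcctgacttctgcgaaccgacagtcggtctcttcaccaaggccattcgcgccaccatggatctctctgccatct
Ifnb1 (chr4:88522745-88523044, minus strand): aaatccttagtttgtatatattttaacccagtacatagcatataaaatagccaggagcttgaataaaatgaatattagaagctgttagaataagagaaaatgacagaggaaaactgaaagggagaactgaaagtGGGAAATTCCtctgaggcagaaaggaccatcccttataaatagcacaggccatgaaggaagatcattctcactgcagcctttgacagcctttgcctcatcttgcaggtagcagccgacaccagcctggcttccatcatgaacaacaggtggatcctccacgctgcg
Cxcl10 (chr5:92348840-92349139, minus strand): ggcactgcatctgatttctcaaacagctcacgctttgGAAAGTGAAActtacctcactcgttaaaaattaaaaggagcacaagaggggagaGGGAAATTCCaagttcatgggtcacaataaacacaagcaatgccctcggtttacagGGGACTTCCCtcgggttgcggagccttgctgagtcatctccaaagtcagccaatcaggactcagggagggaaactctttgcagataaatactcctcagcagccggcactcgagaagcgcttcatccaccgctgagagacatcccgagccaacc
Ifit1 (chr19:34640639-34640938, plus strand): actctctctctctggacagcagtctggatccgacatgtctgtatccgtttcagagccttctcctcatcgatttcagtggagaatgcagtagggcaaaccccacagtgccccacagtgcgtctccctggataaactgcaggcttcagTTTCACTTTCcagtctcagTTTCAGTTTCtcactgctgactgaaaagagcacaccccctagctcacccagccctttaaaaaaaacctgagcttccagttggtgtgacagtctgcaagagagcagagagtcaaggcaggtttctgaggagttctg
Asns (chr6:7693160-7693459, minus strand): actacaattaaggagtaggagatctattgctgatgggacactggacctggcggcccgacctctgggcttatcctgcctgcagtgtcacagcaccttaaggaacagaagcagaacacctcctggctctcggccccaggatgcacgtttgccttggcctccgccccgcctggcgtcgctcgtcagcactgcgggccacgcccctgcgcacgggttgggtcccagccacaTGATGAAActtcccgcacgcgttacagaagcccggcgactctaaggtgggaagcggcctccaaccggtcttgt

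The values are normalized log2 values, 1 per gene and library, and a difference between groups is given on this scale with its standard error (SE). A gene was called changed when limma gave an adjusted p below 0.05 over all 11971 genes tested and its absolute log2 difference was 1 or more, a 2-fold change. At 1 h, 140 genes (1.17%) were changed, 80 lower (0.668%) and 60 higher (0.501%) in p105AA than in WT cells, and the median difference of all genes tested was -0.0063. The 6 and 6 libraries did not overlap in 75 of the 80 lower and 56 of the 60 higher genes, whereas among all genes tested 6.19% lay lower and 6.62% higher without overlap. At the adjusted p alone, 42.5% of the genes differed, so most of the differences that passed the test were under 2-fold. The WT libraries were also taken as 2 sets, replicates 4 to 6 and replicates 7 to 9, a division that the labels do not state. Pairs of WT libraries across the sets lay 0.232 to 0.280 apart (root mean square over genes, log2 scale) and pairs within a set 0.159 to 0.264, so the distances overlapped. With the first set alone as control, 184 genes (1.54%) were changed, 126 lower (1.05%) and 58 higher (0.485%), and with the second 141 (1.18%), 67 lower (0.560%) and 74 higher (0.618%). At the adjusted p alone, 17.3% of all genes were lower and 15.9% higher with the first set, and 19.8% lower and 19.1% higher with the second.

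One p105AA library stood apart. Replicate 2 lay 0.253 (root mean square over genes, log2 scale) from its group mean, against 0.124 to 0.176 for the other 11 libraries, and its deviations followed transcript length (Spearman correlation of -0.38 across 11579 genes, which are not independent). Without it 133 genes (1.11%) were changed, 76 lower (0.635%) and 57 higher (0.476%), and 20.7% were lower and 19.1% higher at the adjusted p alone. The macrophage markers Csf1r, Cd68 and Adgre1 were above 14 in all 12 libraries, whereas none of 7 erythroid markers passed the filter on low values. Of the 11 macrophage markers tested 4 were lower and 4 higher at the adjusted p, none by 2-fold, where 21.9% of all genes were lower and 20.5% higher, and their summed log2 level was 18.82 to 19.00 in WT and 19.00 to 19.34 in p105AA libraries. Of 9 neutrophil markers tested 3 were higher (S100a8, S100a9 and Ngp by 0.51 to 0.71) and 1 lower, against the same shares, their summed log2 level was 9.47 to 10.52 in WT and 9.52 to 10.77 in p105AA libraries, and Elane, Prtn3 and Ctsg were below 1 in every library. Against WT 4 to 6 alone 6 of the 9 were higher and none lower, and against WT 7 to 9 none higher and 2 lower. With the 12 libraries fitted alone, S100a8, S100a9 and Ngp did not pass the test (limma adjusted p = 0.0662, 0.16 and 0.238). In bulk RNA, fewer cells of a type and less RNA per cell cannot be told apart. Rn45s, ribosomal precursor RNA of a repeated gene that poly(A) selection should remove, was 14.88 to 19.38 in WT and 13.56 to 14.48 in p105AA libraries. Across genes the difference at 1 h correlated with length by -0.12 (Spearman), and by -0.01 without p105AA replicate 2. The part of the marker and Rn45s values in the differences below was not tested.

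The mutated pathway itself changed little at the RNA level. Nfkb1 was 11.75 to 12.20 (median 11.93) in WT and 11.77 to 12.08 (median 11.88) in p105AA libraries, a difference of -0.05 (SE 0.05, limma adjusted p = 0.50). The 2 ranges overlapped, and since the alleles change codons and not the gene's presence, this level does not check the genotype. Map3k8 differed by 0.10 (SE 0.06, adjusted p = 0.23), with overlapping libraries, and Tnip2 by -0.14 (SE 0.05, adjusted p = 0.024), also with overlap, a call lost when these 12 libraries were fitted alone (adjusted p = 0.0969). Of the 21 kinases and partners of the p105, TPL-2 and ERK1/2 pathway tested, 6 were lower and 4 higher, all by less than 0.21 on the log2 scale, against 21.9% of all genes lower and 20.5% higher at the same adjusted p. Without p105AA replicate 2 the counts were 3 and 2. Of 12 LPS receptors and adaptors, 3 were lower and 3 higher, against the same shares. Tlr2, the receptor for bacterial lipoproteins, was 0.64 higher (SE 0.09, adjusted p = 9.40e-10), by 0.25 against WT 4 to 6 and by 1.03 against WT 7 to 9.

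**Figure D1:**
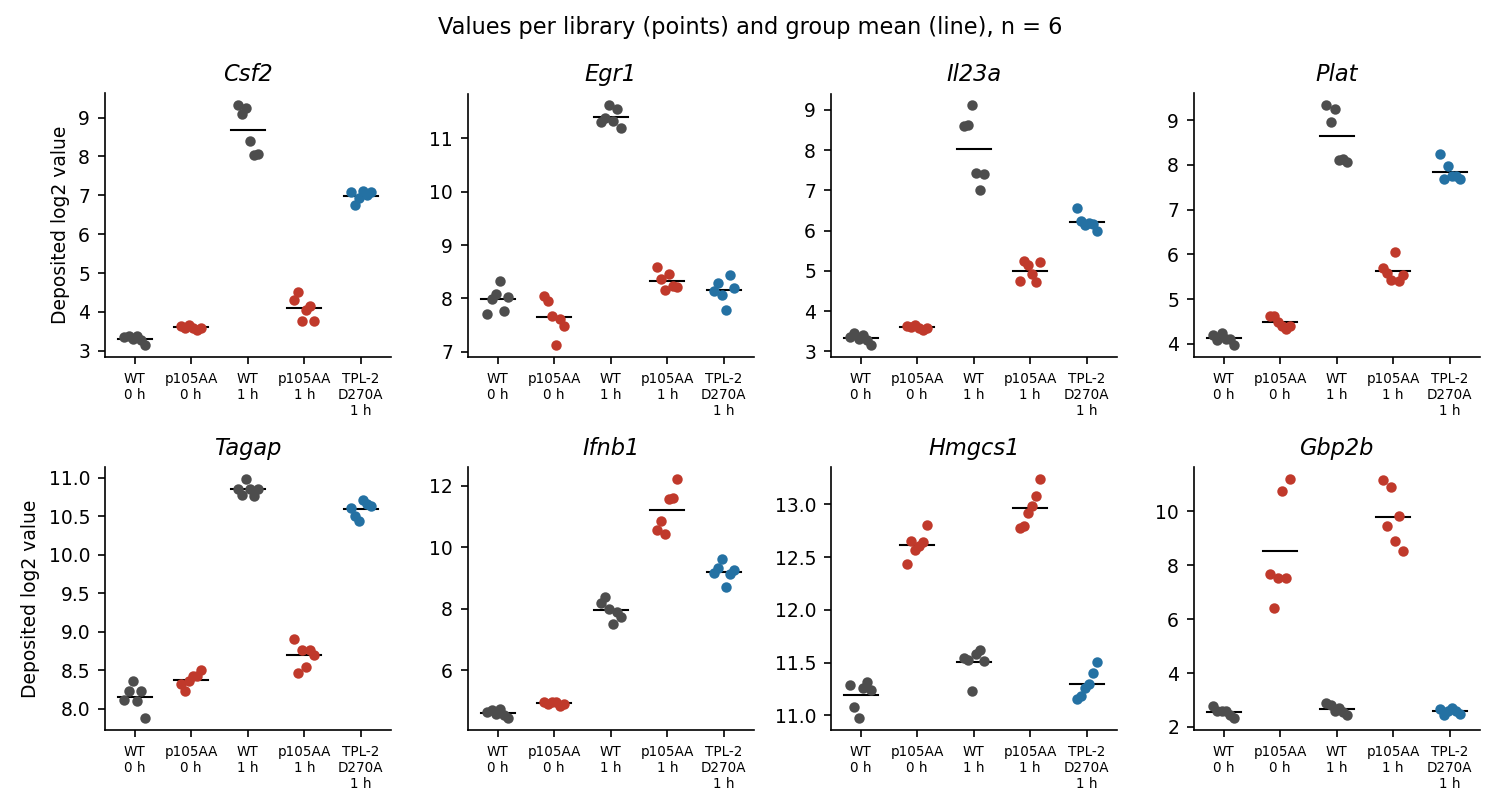
Deposited log2 value (vertical axis, a separate scale for each gene that does not start at 0) of 8 genes in each library of 5 groups; points are libraries, lines are group means, n = 6. After LPS, Csf2, Il23a, Plat and Tagap lay nearer to their unstimulated level in p105AA than in WT cells, Ifnb1 lay above every WT library, and Hmgcs1 and Gbp2b were higher with and without LPS.

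Several cytokine genes were strongly reduced, and Csf2 gave the largest reduction of all genes tested. Csf2 (chromosome 11 from 54247270 to 54249899) encodes GM-CSF, a growth and survival factor of myeloid cells. Its value was 8.03 to 9.31 (median 8.75) in WT and 3.76 to 4.51 (median 4.10) in p105AA libraries, near the 3.53 to 3.66 of unstimulated p105AA cells. All 6 p105AA libraries lay more than 3 log2 units below every WT library, and the difference was -4.60 (SE 0.16, limma adjusted p = 4.13e-45), or -5.12 against WT 4 to 6 and -4.08 against WT 7 to 9. Il23a (chromosome 10 from 128296140 to 128298084), the p19 subunit of IL-23, was 7.01 to 9.11 (median 8.02) in WT and 4.73 to 5.26 (median 5.04) in p105AA libraries. The groups did not overlap, and the difference of -3.02 (SE 0.16, adjusted p = 1.72e-30) was -3.77 against WT 4 to 6 and -2.28 against WT 7 to 9.

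Of 23 inflammatory cytokine genes tested, 13 were lower and 2 higher, 7 of the lower ones by at least 2-fold, whereas of all genes 21.9% were lower and 20.5% higher at the adjusted p and 0.668% lower by 2-fold. The median difference was -0.54, or -0.80 against WT 4 to 6 and -0.04 against WT 7 to 9. Lif and Clcf1, cytokines of the IL-6 family, were lower by 2.01 (SE 0.12) and 1.82 (SE 0.16). Il1a and Il1b, which encode the IL-1 cytokines, were lower by 1.36 (SE 0.15) and 1.23 (SE 0.14), and Il10, an anti-inflammatory cytokine, by 1.28 (SE 0.20, adjusted p = 4.86e-08). Il10 was 9.46 to 10.18 (median 9.76) in WT and 8.06 to 9.07 (median 8.46) in p105AA libraries, without overlap. Tnf, in contrast, was 16.12 to 16.37 in WT and 15.97 to 16.23 in p105AA libraries, which overlapped, and its difference of -0.17 (SE 0.08, adjusted p = 0.072) did not pass the test. With library weights it did (-0.21, limma adjusted p = 0.025). Osm, also of the IL-6 family, and Tnfsf15 were higher, by 0.60 (SE 0.09) and 0.62 (SE 0.13), the latter call lost against WT 4 to 6 alone (adjusted p = 0.202). The cytokine count rested partly on the choice of WT set, with 18 lower against WT 4 to 6 (17.3% of all genes) and 10 against WT 7 to 9 (19.8%). Il6, for one, differed by -1.37 against the first set and by -0.04 against the second, and Il12b by -1.55 and 0.42. With the 12 libraries fitted alone neither passed the test (limma adjusted p = 0.111 and 0.336).

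Chemokine genes differed in both directions. Ccl22, a ligand of CCR4 on T cells, was 9.09 to 10.05 (median 9.26) in WT and 6.72 to 7.71 (median 7.21) in p105AA libraries, with no overlap and a difference of -2.25 (SE 0.15, adjusted p = 8.30e-25). Of the 3 neutrophil-attracting chemokines tested, Cxcl3 was lower by 1.33 (SE 0.13) and Cxcl1 by 0.86 (SE 0.11), whereas Cxcl2 differed by -0.09 (SE 0.08, adjusted p = 0.38). Of 11 CC chemokines 6 were lower and 2 higher, against 21.9% of all genes lower and 20.5% higher. Ccl4 and Ccl5, which attract T cells, were the higher ones, by 0.72 (SE 0.09) and 0.83 (SE 0.18). Ccl5 was higher by 0.41 against WT 4 to 6, where the call was lost (limma adjusted p = 0.142), and by 1.25 against WT 7 to 9.

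Egr1, Egr3, Nr4a1 and Fos, immediate early genes, were lower. Of 21 genes of a broader immediate early list 10 were lower and 5 higher, against 21.9% of all genes lower and 20.5% higher, with a median of -0.12, or -0.19 without p105AA replicate 2, -0.24 against WT 4 to 6 and -0.04 against WT 7 to 9. Egr1, a zinc finger transcription factor, was 11.19 to 11.62 (median 11.36) in WT and 8.16 to 8.59 (median 8.29) in p105AA libraries. The difference of -3.06 (SE 0.14, adjusted p = 8.04e-35) was much larger than the range within either group. Egr3, its relative, was 9.79 to 10.21 (median 10.04) in WT and 7.27 to 7.66 (median 7.40) in p105AA libraries, also without overlap, a difference of -2.60 (SE 0.13, adjusted p = 7.77e-32). Egr2 was only 0.28 lower (SE 0.12, adjusted p = 0.049), with overlap, and the call was lost with either WT set alone. Of the corepressors of the family Nab2 was 0.65 lower (SE 0.08) and Nab1 did not pass the test.

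Nr4a1, an orphan nuclear receptor, was 10.48 to 11.11 (median 10.60) in WT and 8.28 to 9.25 (median 8.81) in p105AA libraries, without overlap, a difference of -1.95 (SE 0.18, adjusted p = 1.47e-16). Of the 7 Fos and Jun genes, whose products form the AP-1 factors, 5 were lower and none higher, against 21.9% and 20.5% of all genes. Fos was 11.17 to 11.85 (median 11.55) in WT and 9.76 to 10.11 (median 9.89) in p105AA libraries, lower by 1.62 (SE 0.11, adjusted p = 1.39e-24). Its p105AA libraries lay below every WT library. Fosb, Fosl1 and Junb were lower by 1.73 (SE 0.12, from a fit that leaves out 1 implausible Fosb value, in an RSK inhibitor library outside this comparison), 1.15 (SE 0.13) and 0.90 (SE 0.07), and the Fosl1 difference was -0.75 against WT 4 to 6 and -1.54 against WT 7 to 9. Jun differed by 0.09 (SE 0.07, adjusted p = 0.31) and Jund by -0.12 (SE 0.06, adjusted p = 0.13). Among other early response genes, Kdm6b, a histone H3K27 demethylase, was lower by 1.46 (SE 0.12), and Sgk1, a kinase induced by serum and glucocorticoids, was 1.10 higher (SE 0.08).

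Several genes that limit the same pathways were lower too. Of the 11 MAP kinase phosphatases 5 were lower and 3 higher, against 21.9% and 20.5% of all genes, and Dusp2, Dusp5 and Dusp6, which dephosphorylate ERK1/2, were the ones lower by at least 2-fold. Dusp5 (chromosome 19 from 53529145 to 53541809), with adjoining CArG boxes in the promoter shown above, was 10.57 to 10.87 (median 10.73) in WT and 8.40 to 8.95 (median 8.70) in p105AA libraries, a difference of -2.04 (SE 0.14, adjusted p = 1.02e-22). The groups did not overlap, and Dusp2 differed by -2.08 (SE 0.11) and Dusp6 by -1.12 (SE 0.09). Dusp4 did not pass the test (-0.05, SE 0.07). The receptor tyrosine kinase inhibitors Spry1 and Errfi1 were lower by 1.51 (SE 0.11) and 1.48 (SE 0.14). Zfp36, which encodes the mRNA decay factor tristetraprolin, was lower by 1.02 (SE 0.08, adjusted p = 4.54e-19).

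Of the 6 IkB genes, all were lower at the adjusted p, against 21.9% of all genes, and none by 2-fold. With the 12 libraries fitted alone, Bcl3 and Nfkbie did not pass the test (limma adjusted p = 0.117 and 0.163). Nfkbia, the gene of IkBα, was 15.06 to 15.26 (median 15.13) in WT and 14.42 to 14.67 (median 14.52) in p105AA libraries, a difference of -0.62 (SE 0.05, adjusted p = 1.43e-19). The groups did not overlap for Nfkbia or for Nfkbid (-0.81, SE 0.10), but they did for Nfkbie and Bcl3, and with WT 7 to 9 alone as control 2 of the 6 were lower, against 19.8% of all genes. Of 13 genes of the A20 and NF-kB feedback list 9 were lower, Socs3 by 1.04 (SE 0.09) and Tnfaip3, the gene of A20, by 0.41 (SE 0.09), and with WT 7 to 9 alone 4 were, against the same 21.9% and 19.8%. Of 21 other NF-kB target genes tested 15 were lower and 2 higher, against 21.9% and 20.5% of all genes, and with WT 7 to 9 alone 6 were lower and 3 higher, against 19.8% and 19.1%. Without LPS 1 of the 21 was lower and 10 were higher, against 15.1% and 16.9% of all genes.

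The remaining genes with the largest reductions were Plat, Adm, Tnfsf4 and Tagap. Plat (chromosome 8 from 22757722 to 22782848), tissue plasminogen activator, was 8.06 to 9.33 (median 8.55) in WT and 5.41 to 6.05 (median 5.56) in p105AA libraries. The difference was -3.02 (SE 0.12, adjusted p = 3.56e-40), with -3.56 against WT 4 to 6 and -2.49 against WT 7 to 9, and no library overlapped. Tagap, a GTPase-activating protein of activated leukocytes, was 10.76 to 10.98 (median 10.85) in WT and 8.47 to 8.90 (median 8.73) in p105AA libraries, a difference of -2.16 (SE 0.09, adjusted p = 3.36e-37) that was nearly the same against either WT set (-2.18 and -2.13). Adm, the vasodilator adrenomedullin, was 6.32 to 7.24 in WT and 4.43 to 5.01 in p105AA libraries (-2.17, SE 0.14). Tnfsf4, the ligand of OX40 on T cells, was 8.11 to 9.51 in WT and 6.27 to 6.89 in p105AA libraries (-2.16, SE 0.16), and neither gene's groups overlapped.

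**Figure D2:**
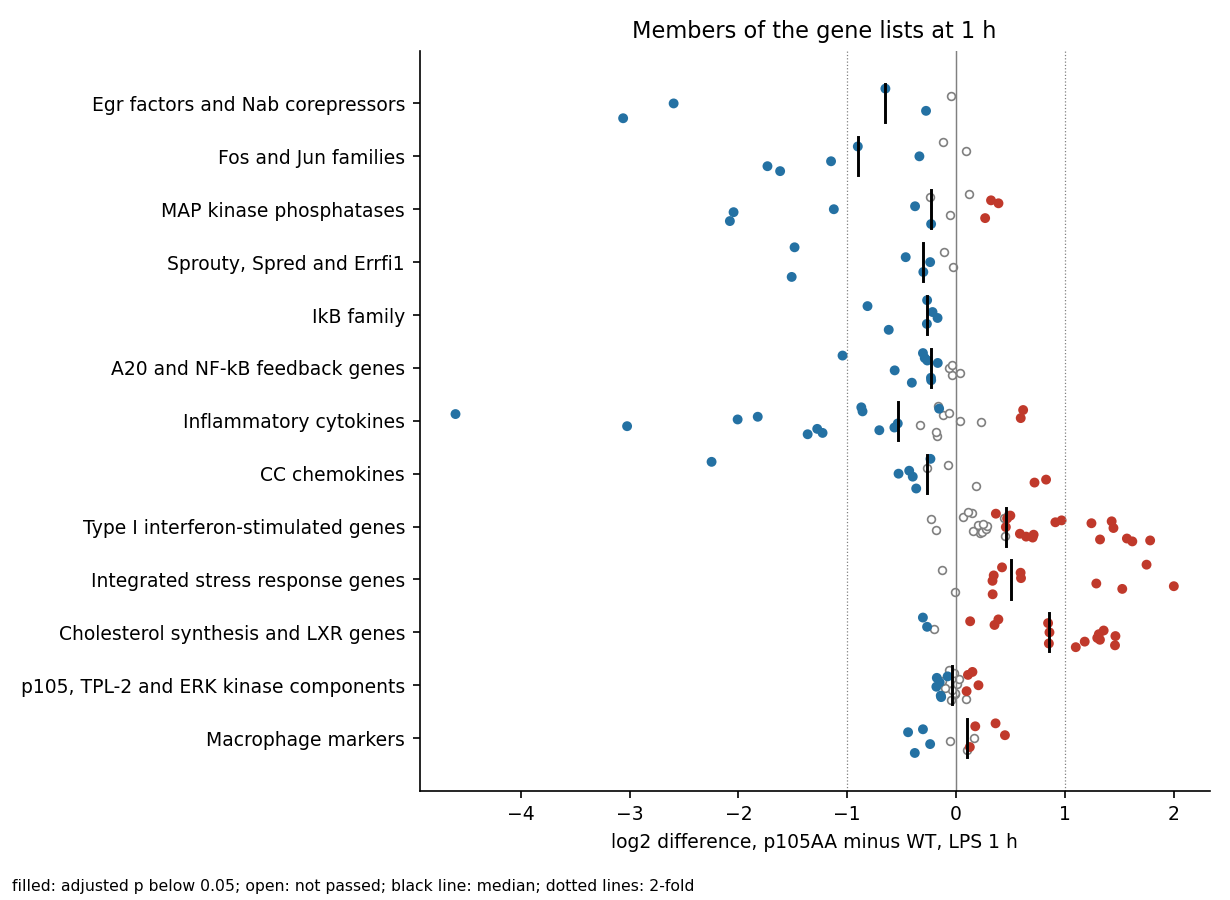
Log2 difference at 1 h between p105AA and WT cells (horizontal axis) of each tested member of 13 gene lists; filled points passed an adjusted p of 0.05, open points did not, and black lines are list medians. Cytokine and Egr members extend furthest to the left, and interferon-stimulated, stress response and cholesterol genes lie mostly to the right of 0.

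The interferon gene Ifnb1 and many interferon-stimulated genes were higher. Ifnb1 (chromosome 4 from 88522025 to 88522794), the gene of IFN-β, was 7.51 to 8.40 (median 7.94) in WT and 10.44 to 12.22 (median 11.21) in p105AA libraries. Every p105AA library lay at least 2 log2 units above every WT library, and the difference was 3.26 (SE 0.25, adjusted p = 5.68e-21). Ifna2 and Ifna5 were higher by 1.49 (SE 0.15) and 1.20 (SE 0.13), but at 1.42 to 1.84 in WT libraries they lay below the linear minimum of 10 that the filter asks of 3 libraries, so they entered the test through other libraries and are given as a description. Asking for it in 6 libraries of the comparison left both untested, and reads of these near-identical genes may be shared among them. Of 32 type I interferon-stimulated genes tested, 17 were higher and none lower, 7 of them by at least 2-fold, against 20.5% of all genes higher at the adjusted p and 0.501% by 2-fold. Without LPS 15 of the 32 were already higher, against 16.9% of all genes, and the list's median was 0.463 there and 0.464 at 1 h. Ifit2 was 11.19 to 11.85 (median 11.39) in WT and 12.42 to 14.46 (median 13.05) in p105AA libraries, 1.78 higher (SE 0.28, adjusted p = 8.58e-08). Ifit1, an RNA-binding antiviral protein with a pair of ISRE cores in the promoter above, was 1.62 higher (SE 0.22), and Rsad2, the gene of viperin, 1.45 higher (SE 0.21). Neither overlapped. Mx1 (0.45, SE 0.25, adjusted p = 0.14) and Irf7 (0.17, SE 0.22) did not pass the test. Cxcl10, a chemokine of the interferon response, was 11.96 to 12.76 (median 12.62) in WT and 13.80 to 14.60 (median 14.04) in p105AA libraries, 1.62 higher (SE 0.19, adjusted p = 6.52e-12).

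Gbp2b, an interferon-inducible GTPase, gave the largest difference. It was 2.43 to 2.89 (median 2.64) in WT and 8.52 to 11.16 (median 9.64) in p105AA libraries, a difference of 7.13 (SE 0.37) that was already 5.96 without LPS. Unstimulated p105AA libraries spread from 6.43 to 11.21, and replicates 4 and 6 were the highest there but the lowest at 1 h. As for Ifna2 and Ifna5, the WT libraries lay below the minimum of the filter, so the size is a description and no test is given. Gbp2b (142594816 to 142619179) lies on chromosome 3, 7.01 Mb from Nfkb1, the mutated gene. Its neighbour Gbp3 (1.43 higher, 0.62 without LPS) and Sgms2 (1.08 higher, 1.04 without LPS) also lie within 10 Mb of Nfkb1. Of the 62 genes tested there, these 3 (4.84%) were changed at 1 h, against 1.17% of all genes. Without LPS 2 of the 62 were at least 2-fold different, against 0.510% of all genes. This window was chosen after the values were seen, and whether DNA of another strain remained around the altered alleles was not tested.

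Cholesterol synthesis genes were higher with and without LPS. Hmgcs1, which makes HMG-CoA, was 11.24 to 11.62 (median 11.54) in WT and 12.78 to 13.24 (median 12.95) in p105AA libraries at 1 h, a difference of 1.46 (SE 0.08, adjusted p = 1.07e-29). The libraries did not overlap, and the difference was 1.43 in unstimulated cells. Of the 17 genes of the cholesterol list tested, 14 were higher and 2 lower at 1 h, 8 of them higher by at least 2-fold, with a median of 0.86, against 20.5% of all genes higher, 21.9% lower and 0.501% higher by 2-fold. Without LPS 13 were higher and 2 lower, with a median of 1.01, against 16.9% and 15.1% of all genes. Lss, Fdps, Idi1, Cyp51 and Sqle, enzymes of the pathway, were higher by 1.18 to 1.47. Abcg1, a cholesterol exporter, was 0.27 lower (SE 0.09), a call lost against WT 7 to 9 alone (adjusted p = 0.28), and Abca1, another, did not pass the test (-0.21, SE 0.11).

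Of 12 genes of the integrated stress response tested, 10 were higher and none lower, 4 of them by at least 2-fold, against 20.5% of all genes higher at the adjusted p and 0.501% by 2-fold. Chac1, which degrades glutathione, was 4.81 to 5.41 (median 5.06) in WT and 6.64 to 7.54 (median 7.02) in p105AA libraries, 2.00 higher (SE 0.15, adjusted p = 5.46e-21). Phgdh, the first enzyme of serine synthesis, was 7.14 to 7.54 in WT and 8.84 to 9.41 in p105AA libraries, 1.75 higher (SE 0.10), and Asns, asparagine synthetase, 1.29 higher (SE 0.08). No library of these genes overlapped between the groups, and all were also higher without LPS, by 1.29, 1.60 and 1.20. Of the other highest genes, Saa3, an acute phase protein, was 2.12 higher (SE 0.20) and 2.06 higher without LPS. Adamts1, a secreted protease, was 2.22 higher (SE 0.18), and Rhov, a small GTPase, 1.87 higher (SE 0.09).

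The unstimulated libraries separated the changed genes. Of the 80 genes lower at 1 h, 28 were also lower without LPS at the adjusted p, and 9 of these by at least 2-fold. Of the 60 genes higher at 1 h, 54 were also higher without LPS, and 33 of these by at least 2-fold. Across all genes tested 61 (0.510%) were at least 2-fold different without LPS, 18 lower (0.150%) and 43 higher (0.359%), and at the adjusted p alone 15.1% were lower and 16.9% higher. Genes lower by similar amounts in both states included Qpct, an enzyme that forms pyroglutamate (-1.41 at 1 h, -1.40 without LPS), and Siglec1, a sialic acid receptor of macrophages (-1.21 and -1.07), both named after their values were seen.

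**Figure D3:**
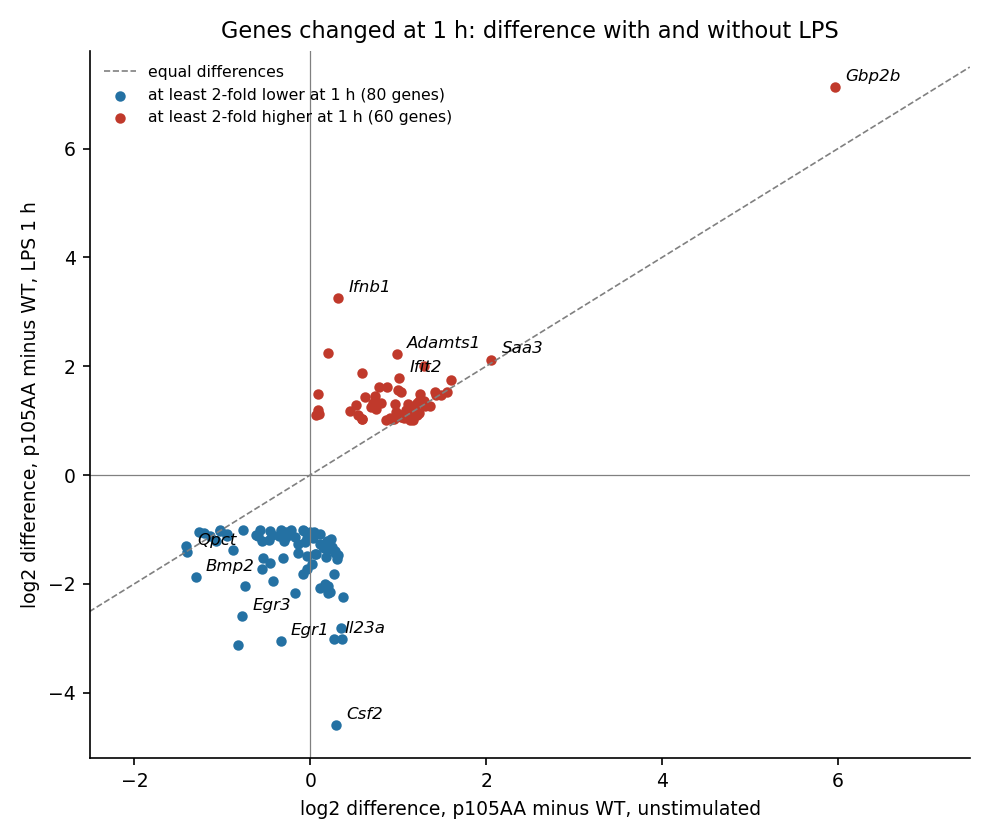
Log2 difference between p105AA and WT cells at LPS 1 h (vertical axis) against the same difference without LPS (horizontal axis) for the 140 changed genes; the dashed line marks equal differences. Most lower genes lie near 0 on the horizontal axis, while most higher genes lie near the dashed line, with Ifnb1 well above it.

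The response to LPS from 0 to 1 h was therefore compared between the genotypes, so that a difference that is the same in both states drops out. The response differed by at least 2-fold in 65 genes (0.543%), 58 with a lower response in p105AA cells (0.485%) and 7 with a higher one (0.0585%), and at the adjusted p alone in 4.30% lower and 1.77% higher. Csf2 rose by 5.39 in WT and by 0.49 in p105AA cells, a difference of -4.90 (limma adjusted p = 9.44e-35). Egr1 rose by 3.41 and 0.69, a difference of -2.72 (adjusted p = 1.94e-20), and Plat by 4.52 and 1.14, a difference of -3.38 (adjusted p = 8.32e-32). Nr4a1, Fos and Il10 differed in their responses by -1.53, -1.16 and -1.14 (adjusted p = 3.01e-06, 2.57e-09 and 0.0028). Ifnb1 rose by 3.34 in WT and by 6.28 in p105AA cells, a difference of 2.94 (adjusted p = 1.06e-10). Unstimulated Csf2 values nearly equalled those of Il23a in most libraries, so they lay at or near a floor of the values. Without LPS, Csf2 was 3.15 to 3.39 in WT and 3.53 to 3.66 in p105AA libraries. Ifnb1 was shifted likewise, from 4.44 to 4.74 in WT and 4.84 to 4.99 in p105AA libraries. The differences in response of both genes include this shift. The other genes with a larger response were Adamts1 (1.24), Rhov (1.28), Sgk1 (1.03), H2-K2 (1.02, named after its value was seen), and Ifna2 (1.39) and Ifna5 (1.11), which the stricter filter left untested. No interferon-stimulated gene and no cholesterol gene of the lists passed the test for a different response, where few of all genes did (4.30% lower, 1.77% higher), and a p that misses the threshold does not show that the responses were alike. For Ifit1 and Cxcl10 the differences in response were 0.84 and 0.75 (adjusted p = 0.089 and 0.081).

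At 0.5 h the early genes already differed. Egr1 was lower in p105AA than in WT cells by 2.56, Egr3 by 1.87 and Fos by 1.28 at that time (limma adjusted p = 9.93e-29, 5.80e-22 and 4.43e-18). Csf2 was lower by 0.50 (adjusted p = 0.010), and Il23a and Plat differed by -0.24 and 0.19 (adjusted p = 0.27 and 0.24). Ifnb1 was 1.45 higher (adjusted p = 1.42e-06).

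The p105AA cells were last set beside Map3k8[D270A] cells at 1 h, to ask where loss of IKK-driven p105 degradation and loss of TPL-2 kinase activity differ. Both mutants are compared with the same WT libraries, so their differences from WT are not independent and are given side by side. Tested against each other, 125 genes (1.04%) were changed, 52 lower (0.434%) and 73 higher (0.610%) in p105AA cells, and at the adjusted p alone 24.6% were lower and 22.7% higher. Egr1 was -3.06 from WT in p105AA and -3.24 in Map3k8[D270A] cells, and the direct difference of 0.18 did not pass the test (adjusted p = 0.31). Lif (-2.01 and -1.97), Il1b (-1.23 and -1.22), Zfp36 (-1.02 and -0.96) and Errfi1 (-1.48 and -1.73) likewise gave direct differences of -0.03, -0.01, -0.05 and 0.24 that did not pass it. Csf2 was -4.60 and -1.70 from WT, a direct difference of -2.90 (adjusted p = 1.00e-29), and in Map3k8[D270A] cells it was 6.75 to 7.10, above every p105AA library and below every WT library.

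Other genes were further below WT in p105AA than in Map3k8[D270A] cells. Adm was -2.17 from WT in p105AA and -0.02 in Map3k8[D270A] cells, a direct difference of -2.15 (adjusted p = 6.13e-26). Tagap (-2.16 and -0.25) and Plat (-3.02 and -0.79) gave direct differences of -1.90 and -2.23, Nfkbia (-0.62 and -0.12) of -0.50 and Icam1, an adhesion molecule (-0.49 and -0.02), of -0.47. Other genes were lower in Map3k8[D270A] cells, where Cxcl2 was -0.80 and Tnf -0.57 from WT, and they were higher in p105AA than in Map3k8[D270A] cells by 0.70 and 0.40 (adjusted p = 1.62e-11 and 2.27e-05). Ifnb1 was 3.26 and 1.25 above WT, a direct difference of 2.00 (adjusted p = 5.77e-11). Of the cholesterol genes 13 were higher and 2 lower in p105AA than in Map3k8[D270A] cells, against 22.7% and 24.6% of all genes.

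**Figure D4:**
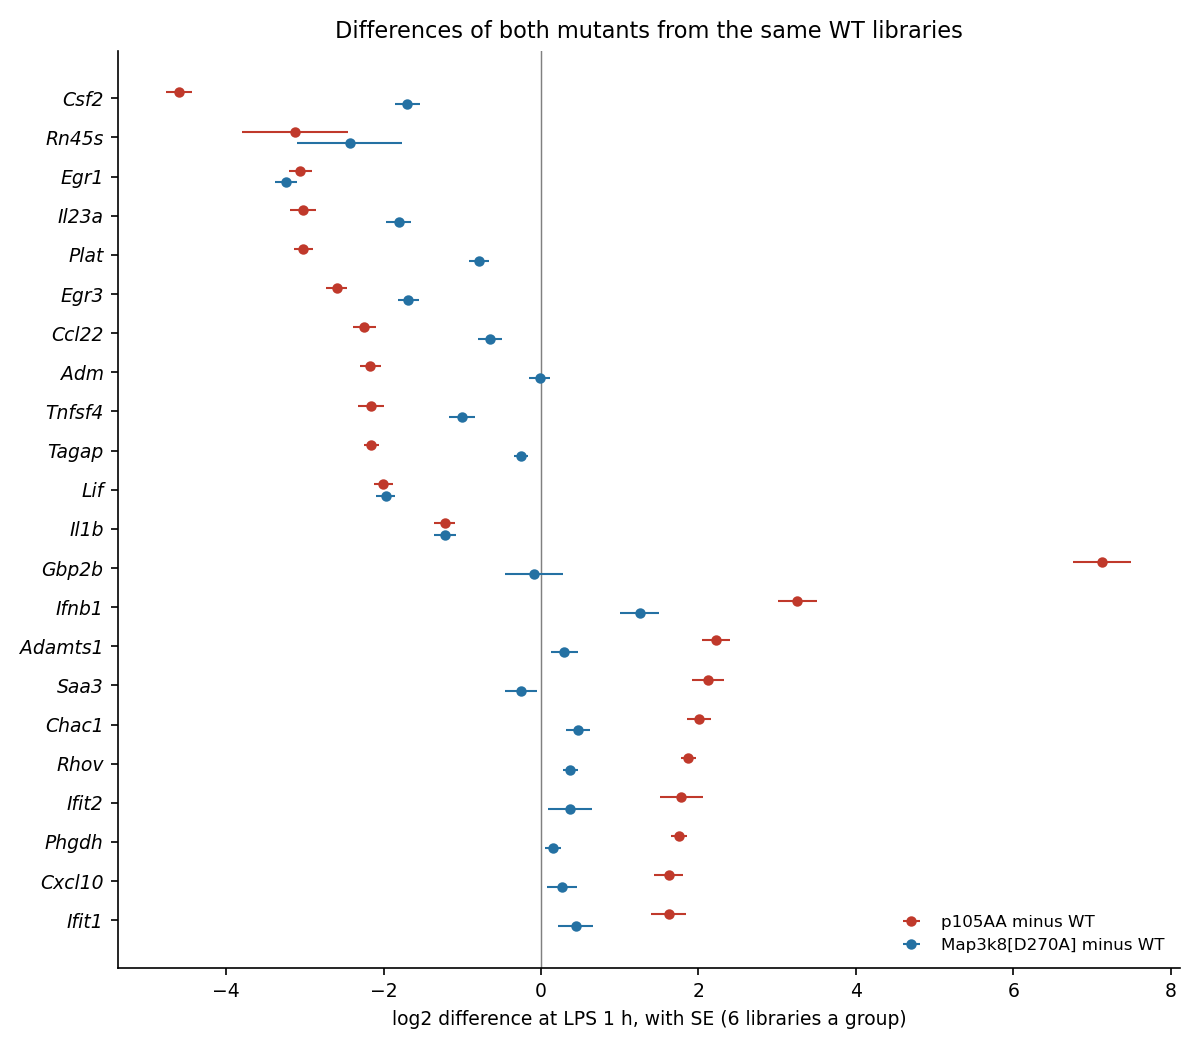
Log2 difference from the same 6 WT libraries at 1 h (horizontal axis, bars are SE) in p105AA and Map3k8[D270A] cells for 22 genes. Egr1, Lif and Il1b lie at nearly the same place in both mutants, Csf2, Plat, Adm and Tagap are further from WT in p105AA cells, and Gbp2b and Saa3 lie well above 0 in p105AA cells and near it in Map3k8[D270A] cells.

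Promoters with a sequence were found for 9215 of the 11971 genes tested, 55 of the 80 lower and 47 of the 60 higher genes. On either strand, the CArG box was present in 1.47% of all, 5.45% of the lower (Dusp5, Gpr183 and Zfp36) and 2.13% of the higher genes. The NF-kB site was in 6.26%, 21.8% and 8.51%, and the AP-1 motif TGANTCA in 6.32%, 16.4% and 17.0%. The ISRE core was in 3.92% of all genes, 0% of the lower and 25.5% of the higher genes, and TGATGNAA in 2.90%, 3.64% and 25.5%. Gbp2b, Ifna2 and Ifna5, whose WT libraries lay below the minimum of the filter, are among the higher genes counted for the ISRE core. Ifna2 and Ifna5 are also counted for TGATGNAA and Gbp2b for AP-1. Shares without these genes were not computed, so the shares of the higher genes are a description. In Dusp5 the CArG boxes lie at positions -82 to -63 from the start, and in Cxcl10 the ISRE core at -213 to -204. Motifs were allowed to overlap each other, and a match describes letters in this window only.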

How the data were processed

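RNA of bone marrow–derived macrophages was made into TruSeq libraries and sequenced from a single end, strand-specifically. The authors aligned reads to mm10 with STAR and estimated abundances of RefSeq genes with RSEM, and the submitters' processing notes also list DESeq2. The deposited values are log2 values normalized by the authors, for 18098 genes. No source used here states the exact transformation, so fold changes of low genes may be compressed, and, since the file gives no counts and the methods only a typical read yield, the depth of each library is not known and precision is taken from the replicates. Values are not scaled by length and levels were not compared between genes. One value of 57.73, for Fosb in a WT library given an RSK inhibitor and LPS for 1 h, was treated as missing. It is in neither group compared at 1 h.

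Genes were tested when 2 to the power of the value was at least 10 in at least 3 libraries (11971 genes). One mean per group was fitted over all libraries of the series with limma 3.58.1 in R 4.3.3 (moderated test, two-sided, Benjamini-Hochberg adjustment), and every adjusted p is from this fit. The pipeline was tested on simulated data. The members and gene lists were chosen with earlier results of these data known. Genes were named by a rule: the 10 lower and the 10 higher genes with the largest differences and no overlap, 9 genes of the pathway at any value, the leading members of each list, and defining members at any value. Which members are defining was not listed by name, and 28 tested genes in the text that are not among the leading ones were chosen after their values were seen. Alternatives covered the variance model, library weights, filters, scaling, thresholds, sets of controls, left-out replicates and a replicate block. Some genes are not reported here.

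Libraries of 0 and 1 h with the same genotype and number deviated together (correlations of 0.37 to 0.71 in WT and 0.14 to 0.52 in p105AA). Libraries with different numbers were not compared in this way, so whether the numbers pair cultures across time is not known. No 2 libraries were identical. Promoters and positions are from RefSeq, GRCm38.p6, and the CArG box, NF-kB site and ISRE core were searched by their usual consensus on both strands.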

Additional observations from a re-analysis of the deposited data

Results flagged for a closer look

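The response to LPS differed between the genotypes, by a test of the difference itself, in 65 genes. Among the genes named, 6 of 182 groups of 6 libraries held a library far from the other 5, where chance gives about 1 in 20. WT replicate 6 was low in Hmgcs1 (11.24). The p105AA replicate 2, the library that stood apart, was low in Nab1 (11.13), Tnfaip3 (14.94) and Siglec1 (10.12). The p105AA replicate 4 was high in S100a9 (7.09), and p105AA replicate 1 was high in Errfi1 (12.11).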

How the results depend on the processing

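Fold thresholds moved the counts most. At a 1.5-fold threshold, at a threshold of the natural logarithm of 2, and at the adjusted p alone, 487, 328 and 5083 genes were changed at 1 h, 166, 131 and 727 in the response to LPS, and 492, 317 and 5670 between the mutants. Leaving out single replicates gave 125 (without p105AA replicate 6) to 145 (without WT replicate 9) genes at 1 h, 60 to 70 in the response and 113 to 137 between the mutants. Of the genes changed at 1 h, 57.1% were lower, but 68.5% with WT 4 to 6 and 47.5% with WT 7 to 9 as control. A few differences reversed: Mapkapk2 was -0.054 with WT 4 to 6 and -0.00263 with the replicate block, S100a9 -0.073, Ngp -0.062, Nfkbie 0.0039 and Il12b 0.42 with WT 7 to 9, and Ccr7 -0.012 and Cd68 -0.0036 with the replicate block, and the cause was not tested. Of 209 genes refitted under each setting, 64 lost their 1 h call at the adjusted p under at least 1 setting other than a left-out replicate, 167 such losses in all. With the libraries of the comparison alone the limma adjusted p was 0.0969 for Tnip2, 0.117 for Bcl3, 0.163 for Nfkbie, 0.197 for Cd68, 0.0662 for S100a8, 0.16 for S100a9 and 0.238 for Ngp, and with the WT, Map3k8[D270A] and p105AA libraries without inhibitor 0.138 for Egr2. For Ccl5 it was 0.142 with WT 4 to 6 alone. With genotype and replicate number as a block the response count stayed at 65. Between p105AA and WT at 1 h the numbers 4 to 6 correlated by 0.13, -0.06 and -0.08, and a block by number gave 209 genes (133 lower, 76 higher). The labels place these samples in different experiments, so nothing but the number is known to link them. Between p105AA and Map3k8[D270A] the correlations ran from -0.17 to 0.25, and the block gave 124. The remaining settings gave 131 to 152 genes at 1 h. The depth of each library is not in the values, which limits what can be said of low genes. The values are on a log2 scale, so the alternatives for a pseudocount were not run.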
